A study of Homo sapiens with 6 samples.

Results

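The antiviral interferon effectors are proteins that interferons switch on and that act directly on viruses or on the cell that carries them. Here they are 38 genes chosen by name from the 58735 genes of the deposited count table: the IFIT, IFITM, MX, GBP, SAMD9 and ISG15 families and other interferon-stimulated effectors, without the OAS, IRF, PARP and TRIM genes. They were read in KYSE410, an established line of oesophageal squamous cell carcinoma, by sequencing of polyadenylated RNA. The siADAR1 group (3 libraries) is labelled as a knockdown derivative of KYSE410, with ADAR1 reduced by small interfering RNA. The control group (3 libraries) is titled NC and labelled wild type. All 6 samples carry the same tissue, cell type and batch labels, a treatment label of none, and the same growth medium. The labels do not say whether the controls received a control siRNA, when the cells were taken after knockdown, or whether the 3 samples of a group were separate cultures. The p-values therefore speak only of the spread among these 6 samples, part or all of which may be technical.

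Type I and type III interferons act through their receptors and the kinases JAK1 and TYK2 on a transcription factor complex with STAT2 and IRF9, which binds interferon-stimulated response elements (ISREs) in the promoters of effector genes. ADAR1, encoded by ADAR, edits adenosines of double-stranded RNA into inosines. In many cells its loss leaves RNA that the sensor MDA5 recognises, with interferon and effector genes induced downstream. Epithelial tumour lines differ widely in how much of this programme they hold at rest.

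The libraries held 16903792, 15175619 and 15203807 counted reads in siADAR1 replicates 1 to 3, and 17329443, 15497788 and 15834849 in control replicates 1 to 3. In both groups the library numbered 1 stood apart: its chi-square per degree of freedom against the others of its group was 14.8 and 18.0 in siADAR1 and 14.1 and 16.8 in control, against 3.95 between siADAR1 replicates 2 and 3 and 5.02 between control replicates 2 and 3 (1 is counting noise alone). ADAR itself was at 92.8, 95.8 and 77.6 CPM (read counts scaled to library size) in siADAR1 and 456, 432 and 444 CPM in control, which left 20.0% of the control level. Its log2 fold change was −2.32 ± 0.09 (adjusted p = 1.06e-08), in the direction of the label.

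Of the 38 effector genes, 34 had enough counts to be tested. In siADAR1, 12 rose, 4 fell and 18 did not pass the test, an adjusted p below 0.05 over the 15294 genes tested. The 16 that passed were 47.1% of the tested effectors. Over all tested genes 51.0% passed, 26.0% as higher and 25.0% as lower, so the share of effectors that passed was near that of the background. The median log2 fold change of the tested effectors was 0.13, against 0.00 (0.00469) over all tested genes, and the range ran from −2.42 for IFITM1 to 2.48 for RSAD2. In 16 of the 34 effectors the CPM of the groups did not overlap, 11 of them higher and 5 lower in siADAR1, against 60.3% of all tested genes. Leaving out both libraries numbered 1 gave 12 effectors higher and 7 lower, where 4162 of 15359 tested genes were higher and 4107 lower. With siADAR1 replicate 1 alone left out, 10 were higher and 3 lower, where 43.7% of all tested genes passed. Scaled to library totals alone, 13 were higher and 2 lower, where 4892 of 15294 tested genes were higher and 2887 lower. The median of all tested genes moved by 0.12 with this scaling.

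The knocked-down cells therefore did not show a single direction over the effectors. EPSTI1, RSAD2, IFIT2, GBP1, GBP2, GBP3 and both DDX60 genes were among those higher, and IFITM1, IFITM3, IFI44L and IFI6 were lower. IFIT1, IFIT3, MX1 and STAT2 had log2 fold changes between −0.04 and 0.10 and did not pass. In bulk RNA a change in the share of cells that express a gene and a change in RNA per cell cannot be told apart.

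**Figure D1:**
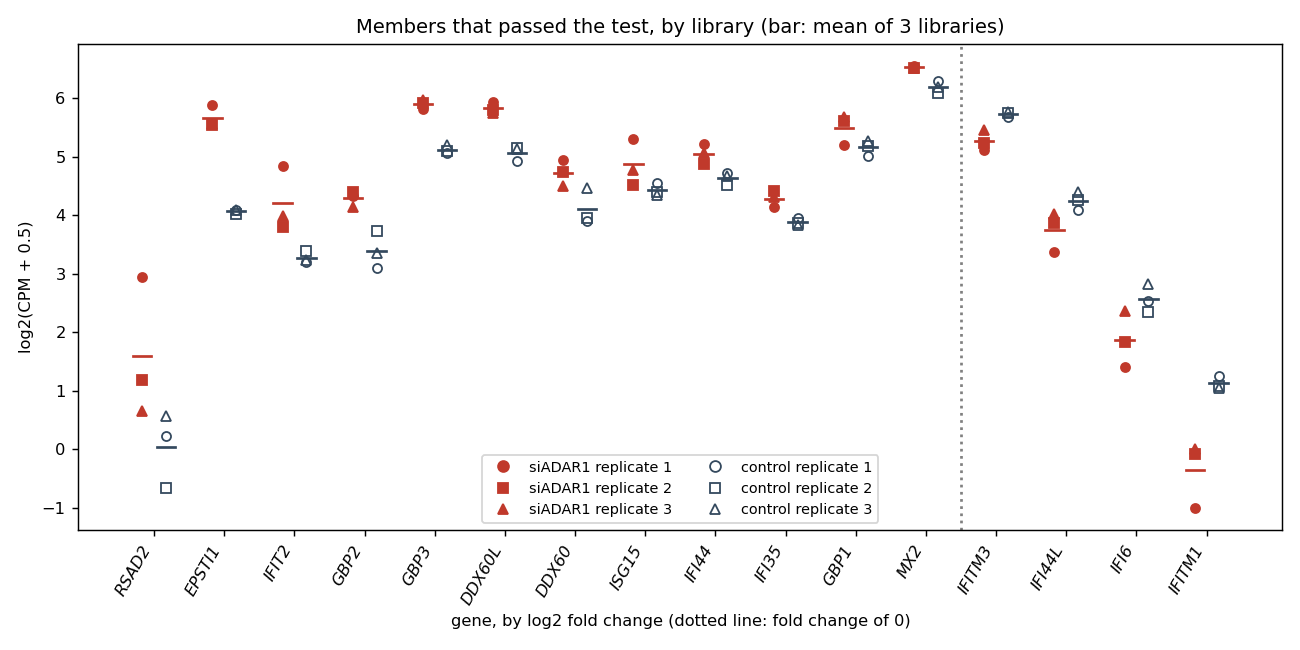
The 16 effector genes that passed the test. The vertical axis is log2(CPM + 0.5), points are single libraries (filled red for siADAR1, open dark for control, with the symbol giving the replicate) and bars are means of 3 libraries. Genes left of the dotted line were higher in siADAR1. RSAD2, IFIT2 and ISG15 have siADAR1 replicate 1 well above the other siADAR1 libraries, and IFITM1 has it at 0 counts.

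The promoters of 5 effectors are shown because genes that moved in opposite directions carry the same element. Each is the RefSeq sequence on GRCh38.p14 from 170 bases before to 20 bases after the RefSeq start, on the strand of the gene, with every match to the ISRE core GAAANNGAAA, on either strand, in capitals. EPSTI1 (chr13:42992222-42992411, minus strand), DDX60 (chr4:168318733-168318922, minus strand) and IFI44 (chr1:78649619-78649808, plus strand) rose. IFI44L (chr1:78620278-78620467, plus strand) and IFITM1 (chr11:313870-314059, plus strand) fell. The calls of IFI44 and IFI44L did not hold with every single library left out. The RefSeq starts of EPSTI1 and DDX60 lay 30 and 55 bases inside the gene bounds of the deposited table, those of IFI44L and IFITM1 526 and 534 bases inside, and that of IFI44 7 bases outside.
EPSTI1: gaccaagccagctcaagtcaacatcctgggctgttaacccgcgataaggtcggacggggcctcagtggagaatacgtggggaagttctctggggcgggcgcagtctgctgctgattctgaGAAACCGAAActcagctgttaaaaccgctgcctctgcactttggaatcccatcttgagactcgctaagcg
DDX60: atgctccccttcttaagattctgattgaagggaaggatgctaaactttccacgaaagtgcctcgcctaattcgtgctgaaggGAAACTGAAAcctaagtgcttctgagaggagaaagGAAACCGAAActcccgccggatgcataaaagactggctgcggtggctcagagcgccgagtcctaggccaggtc
IFI44: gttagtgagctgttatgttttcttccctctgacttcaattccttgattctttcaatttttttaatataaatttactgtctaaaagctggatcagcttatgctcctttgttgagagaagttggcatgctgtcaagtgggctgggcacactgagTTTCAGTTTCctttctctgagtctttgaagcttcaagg
IFI44L: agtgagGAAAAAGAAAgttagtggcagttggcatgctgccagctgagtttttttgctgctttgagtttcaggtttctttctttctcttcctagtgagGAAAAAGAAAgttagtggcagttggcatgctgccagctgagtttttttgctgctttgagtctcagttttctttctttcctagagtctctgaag
IFITM1: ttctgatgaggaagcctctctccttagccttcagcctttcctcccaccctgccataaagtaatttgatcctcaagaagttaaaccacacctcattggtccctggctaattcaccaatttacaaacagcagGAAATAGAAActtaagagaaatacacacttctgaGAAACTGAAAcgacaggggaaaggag

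EPSTI1 had 1 match, from 50 to 41 bases before its start. IFI44 also had 1, from 18 to 9 bases before its start and on the opposite strand, so that it reads TTTCAGTTTC. IFI44L had 2 identical matches, GAAAAAGAAA, the nearer from 73 to 64 bases before its start. DDX60 had 2, from 88 to 79 and from 53 to 44 bases before its start. The 2 matches of IFITM1 lay from 40 to 31 bases before its start and across the start itself.

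RefSeq promoter windows of 300 bases were found for 32 of the 38 effectors. The ISRE core was in 23 of the 32 (71.9%) and in 1255 of 35116 promoters of the same length in the table (3.57%). The effectors were chosen as interferon-stimulated genes, so this difference follows from the choice of genes and describes no response to the knockdown. By direction, the core was in 7 of 9 effectors that rose, 4 of 4 that fell, 11 of 16 that did not pass and 1 of 3 that were not tested. IFIT2, MX2 and GBP2, which also rose, had no window. A match to the interferon-gamma element GAS, TTCNNNGAA on either strand, was in 8 of the 32 (25.0%) and in 7.66% of all promoters. A GAS match overlapped an ISRE match in EPSTI1, which rose, IFITM1, which fell, BST2, which did not pass, and IFI27, which was not tested. The NF-kB consensus was in 4 of the 32 (12.5%) and in 11.3% of all promoters. A match describes these letters in these windows and was not tested as a binding site.

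All 4 tested RNA and nucleotide enzymes were higher in every siADAR1 library than in any control library, and 3 of them rose by the test, where 60.3% of all tested genes did not overlap between groups and 26.0% rose. RSAD2 encodes viperin, which makes a chain-terminating nucleotide that blocks viral polymerases. It had 7.16, 1.78 and 1.08 CPM in siADAR1 replicates 1 to 3, against 0.665, 0.135 and 0.985 CPM in control replicates 1 to 3, from counts of 127, 28 and 17 against 11, 2 and 15. The groups did not overlap, but siADAR1 replicate 3 lay close to control replicate 3 and the difference was mostly that of siADAR1 replicate 1. The log2 fold change was 2.48 ± 0.85 (adjusted p = 0.0403). It was 1.25 without siADAR1 replicate 1 (adjusted p = 0.128), and without any 1 control library the adjusted p was from 0.0512 to 0.12.

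DDX60 and DDX60L encode helicase-like proteins that have been tied to the sensing of viral RNA. DDX60L had 60.7, 55.3 and 53.5 CPM in siADAR1, against 30.0, 34.8 and 34.4 CPM in control. Every siADAR1 library was well above every control library, and the log2 fold change was 0.77 ± 0.11 (adjusted p = 6.11e-05). DDX60 had 30.2, 26.2 and 22.0 CPM in siADAR1, against 14.4, 15.0 and 21.6 CPM in control. Here siADAR1 replicate 3 and control replicate 3 nearly met, and the log2 fold change was 0.62 ± 0.17 (adjusted p = 0.00861). ISG20, an exoribonuclease, averaged 10.4 ± 0.66 CPM in siADAR1 and 8.66 ± 0.28 CPM in control (SD, n = 3 each). Its groups did not overlap, and it did not pass (log2 fold change 0.27, adjusted p = 0.167). CMPK2, a mitochondrial nucleotide kinase whose gene lies beside RSAD2, had no count in siADAR1 and 1 count in control replicate 1, and was not tested. A library with no count allows up to 0.169 to 0.202 CPM (3 counts, counting error only).

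The interferon-induced GTPases were all on the positive side, and 4 of 5 rose, against 26.0% of all tested genes. GBP3, one of the guanylate-binding proteins that coat pathogen vacuoles and viral replication sites, had 56.1, 59.8 and 62.4 CPM in siADAR1, against 33.0, 33.5 and 36.1 CPM in control. The libraries of each group lay close together, and the log2 fold change was 0.80 ± 0.10 (adjusted p = 2.85e-05). GBP2 had 19.5, 20.6 and 17.0 CPM in siADAR1, against 8.04, 12.7 and 9.72 CPM in control. The groups did not overlap, and the log2 fold change was 0.91 ± 0.17 (adjusted p = 0.000779).

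GBP1, the best-studied member of that family, had 36.1, 48.6 and 50.5 CPM in siADAR1, against 31.8, 35.9 and 38.2 CPM in control. Here siADAR1 replicate 1 lay below control replicate 3, and the log2 fold change was 0.35 ± 0.13 (adjusted p = 0.0436). GBP1 did not pass when any library other than siADAR1 replicate 1 was left out (adjusted p from 0.0569 to 0.171). MX2, a dynamin-like GTPase that restricts HIV at the nuclear pore, had 93.0, 91.1 and 91.3 CPM in siADAR1, against 77.5, 67.5 and 72.8 CPM in control. The siADAR1 libraries were almost level, all above control, and the log2 fold change was 0.34 ± 0.09 (adjusted p = 0.0066). MX1, its cytoplasmic relative that blocks influenza virus, averaged 4.68 ± 0.34 CPM in siADAR1 and 4.36 ± 0.50 CPM in control, and did not pass (log2 fold change 0.10, adjusted p = 0.709).

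In the IFIT family of RNA-binding proteins 1 of 4 rose, where 26.0% of all tested genes rose. IFIT2 had 28.1, 13.4 and 15.3 CPM in siADAR1, against 8.70, 10.0 and 8.87 CPM in control. The groups did not overlap, with siADAR1 replicate 1 far above the rest. The log2 fold change was 1.05 ± 0.25 (adjusted p = 0.00504), and 0.64 without siADAR1 replicate 1, which still passed. IFIT1 averaged 6.75 ± 1.33 CPM in siADAR1 and 6.55 ± 1.85 CPM in control, and IFIT3, which binds and stabilises IFIT1, averaged 10.6 ± 2.52 CPM in siADAR1 and 10.7 ± 2.37 CPM in control. Their log2 fold changes of 0.05 and −0.01 did not pass (adjusted p = 0.878 for IFIT1 and 0.967 for IFIT3), and each changed sign with single libraries left out. IFIT5 had 14.8, 15.5 and 14.2 CPM in siADAR1 and 18.1, 17.4 and 17.5 CPM in control. Its groups did not overlap, but it did not pass (log2 fold change −0.25, adjusted p = 0.118).

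ISG15 is a ubiquitin-like protein that is joined to other proteins by UBE2L6 and the ligase HERC5 and removed by USP18. It had 39.0, 22.5 and 26.9 CPM in siADAR1, against 23.0, 20.7 and 19.7 CPM in control. Control replicate 1 lay above siADAR1 replicate 2, so the groups overlapped. The log2 fold change was 0.48 ± 0.18 (adjusted p = 0.0369). It was 0.23 without siADAR1 replicate 1 (adjusted p = 0.201), and ISG15 did not pass without any 1 control library either (adjusted p from 0.0516 to 0.119).

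The other genes of ISG15 conjugation did not pass. UBE2L6 averaged 12.0 ± 1.71 CPM in siADAR1 and 13.5 ± 1.28 CPM in control. For USP18, which also blocks signalling at the interferon receptor, the means were 6.08 ± 0.42 CPM in siADAR1 and 6.81 ± 1.42 CPM in control. HERC5 had 4.68, 1.40 and 2.10 CPM in siADAR1 and 2.72, 2.09 and 2.43 CPM in control, and siADAR1 held both its highest and its lowest library. HERC6, the ISG15 ligase of mice, averaged 22.6 ± 4.80 CPM in siADAR1 and 16.9 ± 2.89 CPM in control (log2 fold change 0.42, adjusted p = 0.0597). It passed without siADAR1 replicate 3 (adjusted p = 0.0192) and without control replicate 1 (adjusted p = 0.0267).

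The membrane restriction factors lay on the other side of 0. IFITM1 and IFITM3 block the fusion of enveloped viruses, IFITM1 mainly at the cell surface and IFITM3 in endosomes. IFITM3 had 34.1, 37.0 and 43.2 CPM in siADAR1, against 50.9, 53.4 and 53.7 CPM in control. All siADAR1 libraries were below all control libraries, and the log2 fold change was −0.47 ± 0.11 (adjusted p = 0.00311).

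IFITM1 had 0, 7 and 8 counts in siADAR1 and 31, 24 and 24 counts in control, or 0, 0.446 and 0.508 CPM against 1.87, 1.61 and 1.58 CPM. It was far lower in each siADAR1 library, with a log2 fold change of −2.42 ± 0.62 (adjusted p = 0.00543). The value was −1.81 without siADAR1 replicate 1. Of its exon bases 32.5% are shared with IFITM2 on the same strand, so reads there could be split between them. IFITM2 itself had 0, 0 and 1 counts in siADAR1 and 13, 1 and 1 counts in control, and was not tested. BST2, or tetherin, which holds budding virions at the cell surface, had 1.97, 1.15 and 1.59 CPM in siADAR1 and 2.60, 2.49 and 2.89 CPM in control. The groups did not overlap, but BST2 did not pass (log2 fold change −0.75, adjusted p = 0.0603). It passed without siADAR1 replicate 1 (log2 fold change −0.96, adjusted p = 0.0422).

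The 4 tested genes named IFI split evenly, with 2 higher and 2 lower, where 26.0% of all tested genes rose and 25.0% fell. IFI44 encodes a protein with reported activity against RNA viruses and HIV. It had 36.7, 28.7 and 32.9 CPM in siADAR1, against 25.7, 22.4 and 24.9 CPM in control. The groups did not overlap, and the log2 fold change was 0.43 ± 0.12 (adjusted p = 0.0114), or 0.37 with an adjusted p of 0.0566 without control replicate 2. IFI44L, the gene next to it, had 9.87, 14.0 and 15.7 CPM in siADAR1, against 16.6, 18.6 and 20.6 CPM in control. Here every siADAR1 library was below every control library, and the log2 fold change was −0.50 ± 0.17 (adjusted p = 0.0293). IFI44L did not pass without siADAR1 replicate 1 (log2 fold change −0.32, adjusted p = 0.105), siADAR1 replicate 2 (0.05), control replicate 2 (0.0697) or control replicate 3 (0.104).

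IFI35, which binds the transcription regulator NMI, had 17.1, 20.8 and 19.3 CPM in siADAR1, against 15.0, 14.1 and 13.7 CPM in control. The groups were apart, with a log2 fold change of 0.41 ± 0.14 (adjusted p = 0.0207), and it did not pass without siADAR1 replicate 2 or 3 or control replicate 2 or 3 (adjusted p from 0.0597 to 0.101). IFI6, a membrane protein that restricts flaviviruses, had 2.14, 3.06 and 4.64 CPM in siADAR1, against 5.32, 4.58 and 6.57 CPM in control. Control replicate 2 lay just below siADAR1 replicate 3, and the log2 fold change was −0.75 ± 0.28 (adjusted p = 0.0407). IFI6 did not pass without siADAR1 replicate 1 (log2 fold change −0.51, adjusted p = 0.146), siADAR1 replicate 2 (0.106), control replicate 1 (0.0515) or control replicate 3 (0.146). IFI27, a mitochondrial membrane protein often used as a blood marker of viral infection, was at 4, 3 and 6 counts in siADAR1 and 3, 3 and 13 counts in control, and was not tested.

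Among the remaining effectors EPSTI1 stood out. EPSTI1 was named for its induction in breast cancer cells by contact with stroma and has been tied to antiviral activity. It had 58.4, 46.0 and 46.4 CPM in siADAR1, against 16.4, 15.8 and 16.5 CPM in control. The control libraries were nearly equal and the siADAR1 libraries were each at least 46.0 CPM. The fold change of 3.10 (log2 1.63 ± 0.12, adjusted p = 6.67e-07) had the smallest p of the effectors, and the log2 value stayed between 1.51 and 1.69 with any 1 library left out.

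SAMD9 and SAMD9L, paired genes whose products stop translation and restrict poxviruses, did not pass in edgeR's test. SAMD9 had 36.1, 48.2 and 55.9 CPM in siADAR1, against 50.8, 97.1 and 109 CPM in control. Control replicate 1 lay among the siADAR1 libraries and the other controls lay well above (log2 fold change −0.87, adjusted p = 0.0597). With other tools SAMD9 passed as lower, at an adjusted p of 0.048 with DESeq2 and 0.0161 with limma-voom. SAMD9L showed the same control library low, at 23.7 CPM against 43.1 and 47.8 CPM in the other controls, beside 22.9, 29.2 and 37.8 CPM in siADAR1 (log2 fold change −0.35, adjusted p = 0.338). Without control replicate 1 both passed as lower, SAMD9 at −1.16 (adjusted p = 0.000129) and SAMD9L at −0.62 (adjusted p = 0.012). In siADAR1, replicate 1 was also the lowest library for both genes. Without both libraries numbered 1, SAMD9 was at −0.99 (adjusted p = 1.11e-11) and SAMD9L at −0.44 (adjusted p = 0.00107). Without siADAR1 replicate 1 alone neither passed (adjusted p = 0.182 for SAMD9 and 0.663 for SAMD9L).

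The other effectors did not pass, and gave log2 fold changes from −0.13 to 0.41. STAT2, the signal transducer that the effectors depend on and itself an interferon-stimulated gene, averaged 45.0 ± 3.89 CPM in siADAR1 and 46.2 ± 2.98 CPM in control. The ubiquitin ligase DTX3L averaged 58.9 ± 1.90 CPM in siADAR1 and 53.5 ± 6.17 CPM in control, and the phospholipid scramblase PLSCR1 averaged 61.0 ± 4.35 CPM in siADAR1 and 67.0 ± 6.32 CPM in control. Neither passed with all libraries in, and both did without the libraries numbered 1, DTX3L at 0.24 (adjusted p = 0.0283) and PLSCR1 at −0.24 (adjusted p = 0.0153). SP110, a nuclear body protein, averaged 9.68 ± 0.43 CPM in siADAR1 and 9.48 ± 0.65 CPM in control. LAMP3, a lysosomal membrane protein, averaged 4.35 ± 1.34 CPM in siADAR1 and 3.99 ± 1.21 CPM in control. RTP4, a receptor chaperone, averaged 0.824 ± 0.22 CPM in siADAR1 and 0.623 ± 0.04 CPM in control. XAF1, a partner of the apoptosis inhibitor XIAP, had 0, 4 and 3 counts in siADAR1 and 3, 0 and 3 counts in control, and was not tested.

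**Figure D2:**
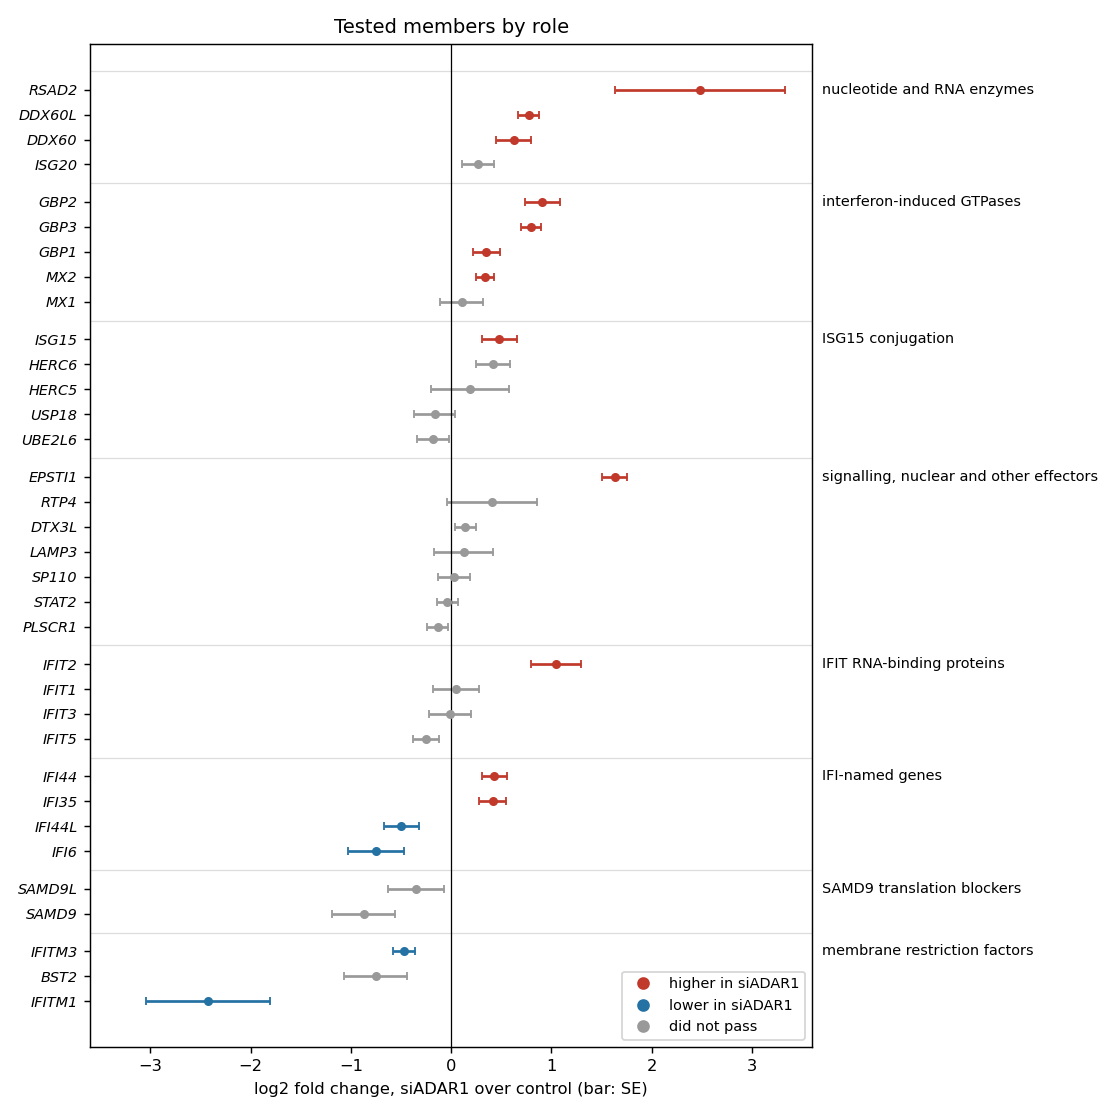
The log2 fold change of the 34 tested effectors, siADAR1 over control, grouped by role, with the SE as bars and colour for the outcome of the test. The 5 GTPases and the 4 tested RNA and nucleotide enzymes lie right of 0, and the 3 tested membrane factors lie left of it, with IFITM1 at −2.42.

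Many effectors lie in tandem arrays, and neighbours did not always share a direction. With gene bodies within 500 kb of each other, 22 effectors formed 9 clusters. IFI44L and IFI44 lie side by side on chromosome 1 within 44.2 kb, on the same strand, and moved in opposite directions. Both calls depended on single libraries. IFI44L did not pass without siADAR1 replicate 1 (edgeR adjusted p = 0.105), nor IFI44 without control replicate 2 (0.0566). The log2 ratio of IFI44L to IFI44 (each CPM + 0.5) was −1.84, −1.01 and −1.04 in siADAR1, against −0.62, −0.26 and −0.27 in control. The groups did not overlap, and the ratio was lower by 0.91 in siADAR1 (difference −0.91, exact permutation p = 0.1, the smallest that 3 against 3 can give).

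In the IFIT array on chromosome 10 (137 kb), the log2 ratio of IFIT2 to IFIT3 was 1.03, 0.49 and 0.75 in siADAR1, against 0.07, −0.11 and −0.53 in control. Every siADAR1 library was above every control library, by a mean of 0.95 (exact permutation p = 0.1). The ratio of IFIT2 to IFIT1 also did not overlap between groups (difference 0.87), while that of IFIT3 to IFIT1 did (difference −0.07, exact permutation p = 0.6). On chromosome 21 the log2 ratio of MX2 to MX1 was 4.07, 4.19 and 4.21 in siADAR1, against 3.85, 3.95 and 3.94 in control (difference 0.24). On chromosome 7 the log2 ratio of SAMD9 to SAMD9L was 0.65, 0.71 and 0.56 in siADAR1, against 1.09, 1.16 and 1.18 in control. Both genes were low in control replicate 1, but their ratio there lay beside the other controls, and the groups differed by −0.50 (exact permutation p = 0.1).

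All 3 effectors of the GBP array on chromosome 1 (144 kb) rose, as did both DDX60 genes on chromosome 4. The log2 ratio of GBP3 to GBP1 was 0.63, 0.30 and 0.30 in siADAR1, against 0.05, −0.10 and −0.08 in control, and the groups did not overlap (difference 0.45, exact permutation p = 0.1). The log2 ratio of DDX60 to DDX60L overlapped between groups (difference −0.15, exact permutation p = 0.5). In all, 15 pairs of neighbours were compared. The ratios of IFIT2 to IFIT5 and of IFITM1 to IFITM3 also did not overlap between groups. Those of GBP3 and GBP1 to GBP2, of IFIT3 and IFIT1 to IFIT5, and of HERC6 to HERC5 overlapped. The share of other gene pairs whose ratios do not overlap was not computed. Of single tested genes 60.3% did not overlap, so these ratios cannot be called particular to neighbours. With 15 tests at a smallest p of 0.1, no pair can pass an adjustment.

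Per length of gene, the effectors were expressed at low to moderate levels in the control cells. By mean deposited FPKM over the control libraries, 8 were below 1, 25 from 1 to below 10, 5 from 10 to below 100, and none reached 100. IFITM3 was the highest, at 27.9 ± 3.32 FPKM in siADAR1 and 38.7 ± 1.15 FPKM in control (SD, n = 3 each). ISG15 came next in control, at 30.9 ± 8.98 FPKM in siADAR1 and 22.2 ± 1.74 FPKM in control, so in siADAR1 the means of these genes stood in the opposite order, within the spread of ISG15. PLSCR1 followed, at 13.9 ± 0.97 FPKM in siADAR1 and 15.3 ± 1.46 FPKM in control. SAMD9 was at 6.73 ± 1.42 FPKM in siADAR1 and 12.4 ± 4.45 FPKM in control. IFI44 was at 15.9 ± 1.92 FPKM in siADAR1 and 11.8 ± 0.83 FPKM in control. In control the mean of SAMD9 differed from those of PLSCR1 and IFI44 by less than its own spread. PLSCR1 was above IFI44 in every control library (13.6, 15.8 and 16.4 FPKM against 12.5, 10.9 and 12.1 FPKM).

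The changes were found in each level class. Among the 25 effectors from 1 to below 10 FPKM, 9 rose and 3 fell, a share of 48.0%, against 52.0% of the 7190 tested genes of that class. Among the 5 from 10 to below 100 FPKM, ISG15 and IFI44 rose and IFITM3 fell, where 60.4% of 4269 tested genes passed. Below 1 FPKM only 4 of 8 could be tested, and RSAD2 was the one that rose, at 0.683 ± 0.68 FPKM in siADAR1 and 0.122 ± 0.09 FPKM in control, where 35.0% of 3484 tested genes passed. The median log2 fold change of the effectors from 1 to below 10 FPKM was 0.12, beside 0.07 for all tested genes of the class. Over all tested genes the direction went with the control level. From 1 to below 10 FPKM 2229 genes were higher and 1513 lower, and below 1 FPKM 995 were higher and 223 lower. From 10 to below 100 FPKM 728 were higher and 1852 lower.

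**Figure D3:**
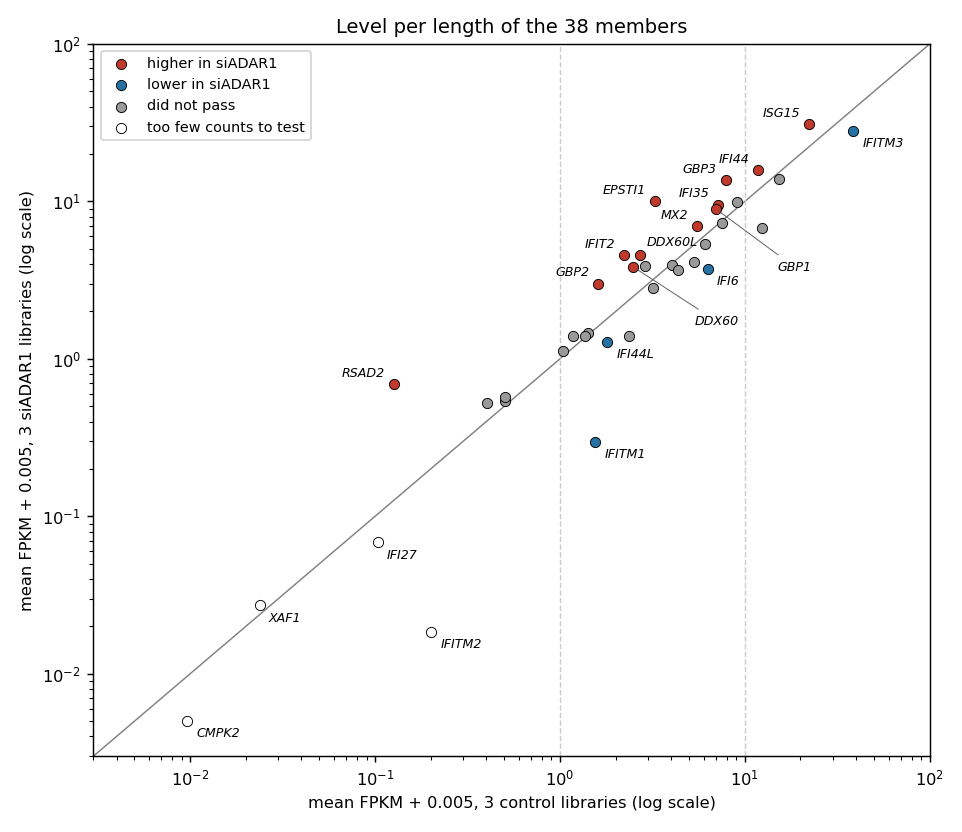
Mean deposited FPKM + 0.005 of the 38 effectors in siADAR1 (vertical) against control (horizontal), both on log scales, with dashed lines at 1 and 10 FPKM and a diagonal of equal level. Most genes lie near the diagonal between 1 and 10 FPKM, EPSTI1 and RSAD2 lie above it and IFITM1 below it, at 0.291 FPKM in siADAR1 and 1.55 FPKM in control.

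Among the effectors that passed, siADAR1 replicate 1 was often the siADAR1 library furthest from control, as it was among all genes that passed. Of the 34 tested effectors, siADAR1 replicate 1 was the highest siADAR1 library in 18 (52.9%), against 39.4% of all tested genes. Among the 12 that rose it was the highest in 8, where it was the highest in 66.5% of all genes that rose, and it was the lowest siADAR1 library in 4 of the 4 that fell, against 65.2% of all genes that fell. The median offset of the effectors from the control mean on the log2 scale was 0.30, 0.04 and 0.07 in siADAR1 replicates 1 to 3, and 0.00 (−0.00252), −0.03 and 0.03 in control replicates 1 to 3. Over all tested genes it was 0.00633, 0.016 and 0.02 in siADAR1 replicates 1 to 3. Of the 16 effectors that passed, 9 did so with any 1 library left out: IFIT2, MX2, IFITM1, IFITM3, EPSTI1, DDX60, DDX60L, GBP2 and GBP3. The matching share over all genes that passed was not computed, so 9 of 16 cannot be called more or less stable than other genes. None of the 16 changed direction under the alternatives that gave a value, 17 for each gene except RSAD2, which had 15. Other tools and scalings also moved single calls. GBP1 did not pass with DESeq2 (adjusted p = 0.0547) or limma-voom (0.0618), ISG15 did not with limma-voom (0.0578), and IFI6 did not with DESeq2 (0.0576). Scaled to library totals alone, IFI6 (adjusted p = 0.0783) and IFI44L (0.0839) did not pass and HERC6 did (0.0218). With limma on FPKM + 1 at a mean of at least 0.5 FPKM, ISG15, IFI44L and GBP1 did not pass (adjusted p from 0.0909 to 0.0946) and BST2 passed as lower (0.0187).

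**Figure D4:**
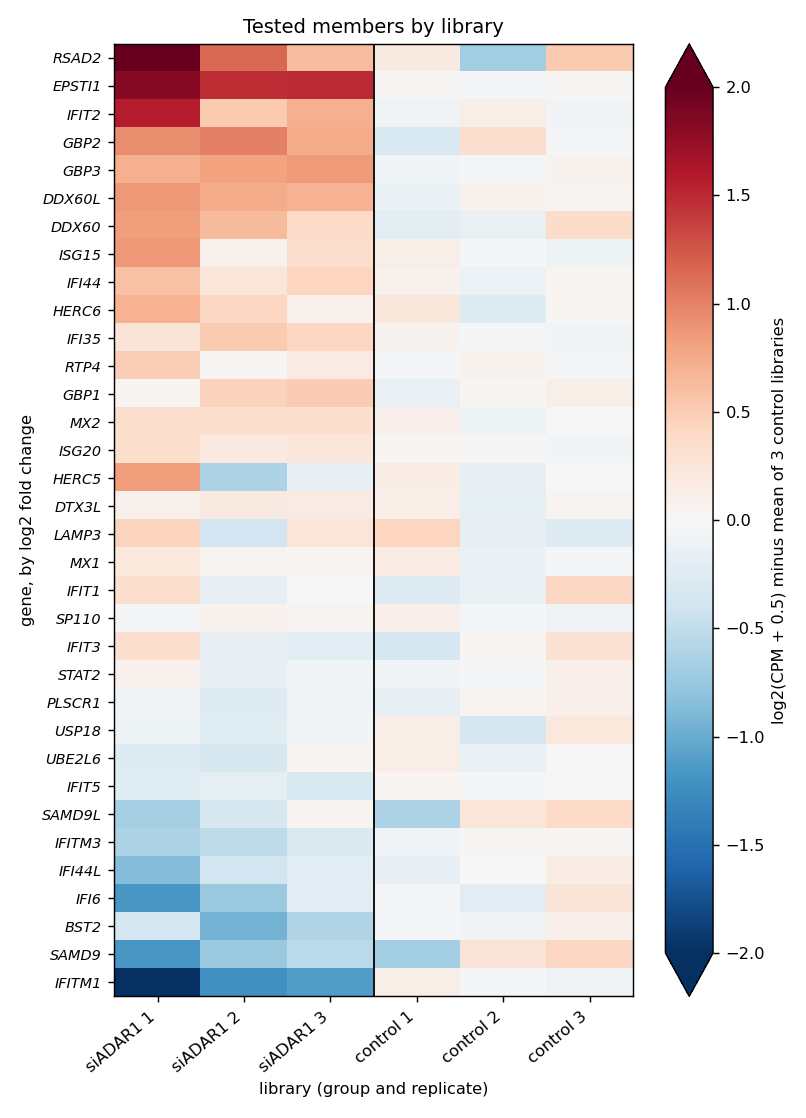
The 34 tested effectors by library, as log2(CPM + 0.5) minus the mean of the 3 control libraries, with colours clipped at −2 and 2 and genes ordered by log2 fold change. The siADAR1 replicate 1 column is darkest in red for RSAD2, EPSTI1 and IFIT2 and darkest in blue for IFITM1, SAMD9 and IFI6. Control replicate 1 is blue for SAMD9 and SAMD9L.

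Upstream of the effectors, interferon transcripts were almost absent. Of 22 ligand genes 16 had no count in any library and none could be tested. IFNB1, interferon beta, had 4, 1 and 3 counts in siADAR1 and 0 in each control library, near the 3 counts that a library with none allows. The counts of IFNL1, a type III interferon, were 2, 7 and 0 in siADAR1 and 0, 0 and 1 in control. IFNE, the epithelial type I interferon, had 14, 8 and 8 counts in siADAR1 and 20, 4 and 10 in control. The summed ligands came to 0.699 to 1.18 CPM in siADAR1 and 0.337 to 1.27 CPM in control, so the sums overlapped. IFNE was the largest part of the sum in each library, so the sum says little about IFNB1 and IFNL1.

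Of the 11 receptor, kinase and transcription factor genes, 10 were tested, of which 3 rose. These were IFNGR2, the signalling chain of the interferon-gamma receptor (0.41, adjusted p = 0.00351), and the kinases TYK2 (0.36, adjusted p = 0.0102) and JAK2 (0.56, adjusted p = 0.0134). IRF9, the DNA-binding partner of STAT2, averaged 0.412 ± 0.33 CPM in siADAR1 and 0.723 ± 0.34 CPM in control and did not pass (adjusted p = 0.316).

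Among the 6 inhibitors of the pathway 1 rose and 2 fell. SOCS3, which blocks JAK kinases, averaged 28.3 ± 4.72 CPM in siADAR1 and 13.8 ± 2.90 CPM in control (log2 fold change 1.04 ± 0.17, adjusted p = 0.000225). The phosphatase PTPN6 averaged 27.4 ± 3.84 CPM in siADAR1 and 52.0 ± 3.57 CPM in control (log2 fold change −0.92 ± 0.12, adjusted p = 4.15e-05), and PTPN2, another phosphatase, fell by 0.28 on the log2 scale (adjusted p = 0.0325). PIAS1 was next by p and did not pass (log2 fold change −0.24, adjusted p = 0.134). Over both lists 43.8% of the 16 tested genes passed, against the 51.0% of all tested genes.

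The markers of the line and of other cells were read beside these values. Of 11 squamous epithelial markers 10 were tested, with 3 higher and 5 lower (51.0% of all tested genes passed), and their summed level was 2600 to 2840 CPM in siADAR1 and 2830 to 3190 CPM in control. DSG3, a desmosomal cadherin, rose (log2 fold change 1.54, adjusted p = 3.84e-06) and the keratin KRT6A fell (−2.24, adjusted p = 2.6e-06). KRT14, a basal keratin, had at most 2 counts in a library. Of the 10 immune cell markers, CD3E, MS4A1 and LYZ had no count, and the list summed to 1.02 to 2.99 CPM in siADAR1 and 0.854 to 0.967 CPM in control, with ITGAM at 40, 9 and 4 counts in siADAR1 and 3, 0 and 1 in control. The 6 fibroblast markers, with DCN at 0, summed to 72.3 to 85.0 CPM in siADAR1 and 40.1 to 59.4 CPM in control. Their 2 tested members rose, LUM at 59.3, 51.3 and 63.3 CPM in siADAR1 and 27.7, 40.3 and 37.1 CPM in control (log2 fold change 0.73, adjusted p = 0.00071), and COL1A1 by less (0.44, adjusted p = 0.041). The 5 endothelial markers, with KDR at 0, summed to 1.07 to 1.59 CPM in siADAR1 and 1.69 to 3.23 CPM in control. The part of these markers in the effector results was not tested.

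No strand-marking step is named in the protocol, so reads of overlapping genes cannot be told apart by strand. LIPA, on the opposite strand, shares 1.58% of the exon bases of IFIT2 and was lower in siADAR1 (log2 fold change −0.31, adjusted p = 0.043). GBP2 shares 9.89% of its exon bases with GBP7, which had 3 counts or fewer in every library. For IFITM3 21.3% is shared with an antisense gene that had no count, and RSAD2 and CMPK2 share 0.29% of the exon bases of RSAD2. GBP1, GBP2 and GBP3, SAMD9 and SAMD9L, and the IFIT and IFITM genes are close paralogues, and how reads that match several of them were counted is not given in the sources used here.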

How the data were processed

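RNA sequencing of 6 KYSE410 samples was analysed, 3 siADAR1 and 3 control, grouped and numbered by their titles. Counts are the authors' deposited whole reads per gene, without normalization. Deposited FPKM values, per the file headers, carried a library factor of 0.966 to 0.97 in control and 1.05 to 1.06 in siADAR1 relative to count totals, and were used for levels between genes. The submitters' processing notes name CASAVA, fastp and HISAT2 2.0.5. The counting tool and genome build were not given in the sources used here. Bounds of the 58735 genes equalled those of GENCODE release 29 on GRCh38.

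Counts were fitted in R 4.3.3 with edgeR 4.0.16: filterByExpr with a minimum count of 10, TMM scaling, and the robust quasi-likelihood F test, two-sided, with group as its term and Benjamini-Hochberg adjustment over 15294 genes. CPM use TMM-scaled library sizes, and SE is the log2 fold change over the root of F. The common biological coefficient of variation was 0.123. The fit was tested on simulated data. Alternatives used DESeq2 1.42.0 and limma 3.58.1, other scalings and filters, FPKM, and left-out libraries. The labels do not say that samples with the same number share a source, so numbers were not taken to pair samples. Correlations of the deviations of same-numbered libraries were 0.281, 0.0915 and 0.145, which does not settle whether they pair. The 38 members and the other lists were chosen with earlier results of these data known, so no list was tested as a set. All members are named. Of the pathway and paralogue lists the 4 genes with the smallest p are named, and ligands with 3 or more counts, except that 1 gene the rule names is not reported here. Reads carry no molecular identifiers, so count floors cover counting error only.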

Additional observations from a re-analysis of the deposited data

How the results depend on the processing

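The effectors higher in siADAR1 numbered 12 and those lower 4. Leaving out 1 library at a time gave 7 to 11 higher and 2 to 5 lower, with a median log2 fold change of the effectors from 0.04 to 0.23. Of all tested genes, 3442 to 3940 were then higher and 3268 to 3912 lower. Leaving out both libraries numbered 1 gave 7 lower, beside 4107 of 15359 tested genes. FPKM + 1 with no filter gave 7 higher and 2 lower, beside 2993 and 2886 of 30727 genes. Library totals alone gave 2 lower and a median of 0.25, and moved the median of all genes by 0.12, with 4892 genes higher and 2887 lower beside 3973 and 3831 in the fit with TMM. The replicate block gave 13 higher, 6 lower and a median of 0.11, where 4396 of all tested genes were higher and 4186 lower. It added HERC6, SAMD9 and SAMD9L and lost no call, and the numbers are not known to pair the samples. Of the interferon signalling genes, 2 to 4 were higher and 2 to 5 lower with 1 library left out, and FPKM + 1 with no filter gave 2 higher. Genes that did not pass and changed sign were IFIT1 (−0.12 to 0.29 with 1 library left out, −0.26 without both libraries numbered 1), IFIT3 (−0.23 to 0.14, and 0.11 on library totals), STAT2 (−0.106 to 0.017, and 0.0794 on library totals), HERC5 (−0.464 to 0.495, and −0.37 without both libraries numbered 1), SP110 (−0.0188 to 0.0743) and LAMP3 (−0.0796 to 0.392). In every alternative 7 of the 16 calls were kept: MX2, IFITM1, IFITM3, EPSTI1, DDX60L, GBP2 and GBP3. The share of all calls kept in every alternative was not computed. The causes of these shifts were not tested. Low counts limit RSAD2, IFITM1, BST2 and RTP4, and the genes that could not be tested.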

Other observations

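Of 24 paralogues and partners of the effectors, 14 had enough counts to be tested, of which 3 rose and 2 fell (35.7%, against 51.0% of all tested genes). SP140L, a relative of the nuclear body protein SP110, had 34.5, 26.7 and 25.9 CPM in siADAR1 and 14.3, 14.7 and 15.1 CPM in control (log2 fold change 0.99 ± 0.14, edgeR adjusted p = 7.86e-05). SP100, which forms nuclear bodies with PML, had 33.8, 29.6 and 29.5 CPM in siADAR1 and 18.9, 21.9 and 23.7 CPM in control (0.53 ± 0.13, adjusted p = 0.00347). Neither pair of groups overlapped, whereas SP110 itself did not pass. HERC4 rose by 0.35 ± 0.11 (adjusted p = 0.0138), and LAMP2, a lysosomal membrane protein, fell by 0.55 on the log2 scale (adjusted p = 0.00164). GBP4, named after its values were seen, had 2.03, 2.23 and 1.46 CPM in siADAR1 and 4.05, 2.83 and 3.81 CPM in control (−0.90 ± 0.29, adjusted p = 0.0189), so it was lower where GBP1, GBP2 and GBP3 were higher.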
